A study of Mus musculus with 4 samples.

Results

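Genes named elsewhere as targets of Zac1 or of related PLAG-family factors, or as partners of such a target, were followed in Neuro-2A cells that overexpressed Zac1. The 9 genes were Adcyap1r1, Pparg, Rxra, Rxrb, Rasgrf1, Tcf4, Apaf1, Krt14 and Slc2a4, chosen by name from such reports, with earlier results of these data known. Of these, 7 were among the 12861 genes with a gene ID and a value, and 6 of the 11433 genes with a mean normalised count of at least 10, which were tested. Slc2a4 fell under that minimum, and Rasgrf1 and Krt14 were not analysed here.

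Neuro-2A is a mouse neuroblastoma line, labelled as of Swiss Albino origin. All cells had been transfected with Lipofectamine, either with pRK5-Zac1 or with pRK5-CAT, which carries a bacterial chloramphenicol acetyltransferase gene and served as the negative control. RNA was taken 16 h after transfection, and tags next to DpnII sites were counted by digital gene expression in 2 libraries per group, numbered 9 and 12. Nothing in the labels says that the libraries of a group came from separate cultures or transfections, and p-values then measure only the spread between these libraries, which may be technical. Transfection was transient in a line already in culture, and the share of cells that took up plasmid is not given in the sources used here. A change in a few cells and a smaller one in all cells, or fewer cells of a kind and less RNA per cell, cannot be told apart.

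Zac1, encoded by the imprinted gene Plagl1, is a zinc-finger transcription factor that binds GC-rich DNA and can arrest the cell cycle and promote apoptosis. Adcyap1r1 encodes the PAC1 receptor for the neuropeptide PACAP, which raises cyclic AMP in neurons. Pparg encodes a lipid-sensing nuclear receptor that binds DNA as a heterodimer with a retinoid X receptor, such as those encoded by Rxra and Rxrb. Apaf1 forms the apoptosome that activates caspase 9, Tcf4 is an E-protein of the basic helix-loop-helix class, Rasgrf1 is a neuronal Ras exchange factor, Krt14 is a keratin of basal epidermis and Slc2a4 encodes the insulin-responsive glucose transporter GLUT4.

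The tag that stands for each transcript is the stretch after its last DpnII site (GATC). Tags of 20 bases were predicted from the longest coding transcript of each member in GENCODE M21 (build GRCm38), and are shown as candidates for the sequences that were counted. That of Tcf4 is not shown. Capitals mark the DpnII site.
Adcyap1r1: GATCcctgctctgcaatgag
Pparg: GATCtattttatgcatattg
Rxra: GATCctgggcaacttggtga
Rxrb: GATCatgggagcagggctct
Apaf1: GATCtataattgaagcttaa
Slc2a4: GATCtcagctgccttccgac

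The predicted tags lay in the 3′ untranslated region at chr6:55500742-55500761 for Adcyap1r1, chr6:115490323-115490342 for Pparg, chr2:27762024-27762043 for Rxra, chr17:34037897-34037916 for Rxrb, all on the plus strand, and at chr10:90990266-90990285 on the minus strand for Apaf1. The tag of Slc2a4 lay in its coding sequence at chr11:69943446-69943465 on the minus strand. None of these tags was the last-site tag of a transcript of another gene. For Pparg all 3 coding transcripts shared 1 tag, as did all 4 of Rxrb, so the counts did not separate their alternative starts. The coding transcripts of Adcyap1r1 had 2 different tags, those of Slc2a4 2, those of Rxra 3 and those of Apaf1 4. The tag shown was that of 1 of 6 coding transcripts of Adcyap1r1 and 1 of 4 of Rxra. For Apaf1 it was that of 2 of 5, and for Slc2a4 of 1 of 2. Which tags the submitters summed into a gene is not given in the sources used here, and their build was mm9.

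Plagl1, the transfected gene, had a normalised count of 0 in both CAT libraries, 3397 in Zac1 replicate 9 and 1475 in Zac1 replicate 12. The labels of all 4 libraries therefore matched their Plagl1 values. Whole tag counts, recovered from the normalised values by undoing the normalisation, summed to 11578920 to 13840674 per library. Of 20 neuroblastoma markers, 17 had values and 0 passed the test, with summed normalised counts of 59435 and 61231 in the CAT libraries and 56205 and 57626 in the Zac1 libraries. Of 10 keratinocyte markers 1 had values (Lor), and of 10 adipocyte markers 4, with Adipoq at 1 to 5 recovered counts per library. Fibroblast markers had 6 of 10 with values, and their sum was 1681 and 1596 in the CAT and 1774 and 1789 in the Zac1 libraries. Col1a1, a fibrillar collagen chain, was the single marker of the 5 lists that passed (log2 fold change 3.49 ± 0.51 SE, limma adjusted p = 0.00215). Striated muscle markers had 5 of 12 with values and summed to 148 and 84.2 in the CAT and 229 and 146 in the Zac1 libraries. Tnnt2 made up most of that sum, with overlapping groups and a log2 fold change of -0.21. The other 4 (Actc1, Tnnt3, Myog and Des) were each higher in both Zac1 libraries than in both CAT libraries. Actc1 and Tnnt3 did not pass, and Myog and Des did not reach the minimum mean. Tnnt3, for example, was at 2.24 and 2.82 in the CAT and 57.4 and 13.8 in the Zac1 libraries (limma adjusted p = 0.0945). Tnnt3 reached the minimum mean of 10 through its Zac1 values alone. Fbln1 made up most of the fibroblast sum, with overlapping groups and a log2 fold change of -0.05. Pdgfrb was at 20.2 and 38.6 in the CAT and 91.4 and 54.4 in the Zac1 libraries (limma adjusted p = 0.27). The part of these markers in the results below was not tested.

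No member passed the test. Over all genes, 110 of 11433 (0.962%) were called higher and 0% lower at a Benjamini-Hochberg adjusted p under 0.05 in limma, and at an unadjusted p under 0.05 598 genes were higher (5.23%) and 110 lower (0.962%). Of the 6 members tested, 0 were called in either direction, and 2 had an unadjusted p under 0.05, Pparg and Rxra, both higher. Both Zac1 libraries were above both CAT libraries in 2 members (Pparg and Rxra) and below them in 2 (Tcf4 and Apaf1). Among all genes tested the first pattern was seen in 17.2% and the second in 16.7%. The median log2 fold change was 0.10 over the 6 members and -0.01 over all genes tested.

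**Figure D1:**
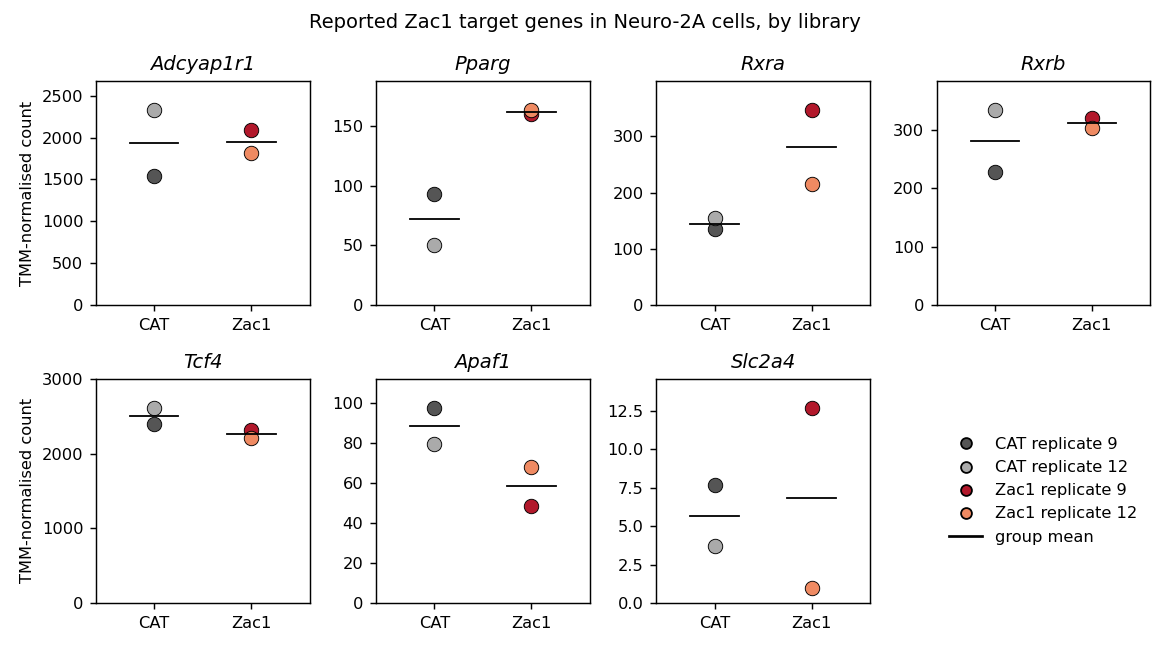
TMM-normalised counts (vertical axes, linear from 0) of the 7 members with values, with 1 point per library and the group mean as a line. The groups do not overlap for Pparg, Rxra, Tcf4 and Apaf1, and overlap for Adcyap1r1, Rxrb and Slc2a4.

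Pparg had the largest difference of the members. Its normalised count was 92.9 in CAT replicate 9, 50.5 in CAT replicate 12, 160 in Zac1 replicate 9 and 163 in Zac1 replicate 12. Both Zac1 libraries lay close together and above both CAT libraries, which differed from each other by 0.87 on the log2 scale. The means were 71.7 ± 30 and 162 ± 2.05 (SD, n = 2), and the Zac1 mean was higher by 1.23 ± 0.32 on the log2 scale (SE; 95% interval 0.55 to 1.90), or 2.34-fold. This did not pass after adjustment over all genes (limma, unadjusted p = 0.00142, adjusted p = 0.0945), and 307 genes had a larger log2 fold change. The recovered tag counts behind it were 84 and 54 in the CAT libraries and 165 in each Zac1 library. The size of the difference depended on which CAT library was kept. It reached 1.66 when CAT replicate 9 was left out, and was 0.79 when CAT replicate 12 was left out. A group then had a single library, assumed to vary like the others. Without Zac1 replicate 9 it was 1.24 and without Zac1 replicate 12 it was 1.21.

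Rxra encodes the retinoid X receptor alpha, a partner of PPAR gamma. Its normalised count was 135 in CAT replicate 9, 154 in CAT replicate 12, 346 in Zac1 replicate 9 and 216 in Zac1 replicate 12. Both Zac1 libraries were above the CAT libraries, with replicate 9 well above replicate 12. The means of 145 ± 13.1 and 281 ± 92.2 (SD, n = 2) gave a log2 fold change of 0.91 ± 0.27 (SE), or 1.88-fold with a 95% interval of 1.26-fold to 2.82-fold, which did not pass (limma, unadjusted p = 0.00419, adjusted p = 0.199). Without Zac1 replicate 9 the value was 0.57, and without Zac1 replicate 12 it was 1.25. The transcripts of Rxra had a GC content of 58.6%, against a median of 51.2% over the genes tested, and Zac1 replicate 9 exceeded Zac1 replicate 12 in 61.7% of genes with a GC content over 55% and in 36.9% of genes under 50%. Plagl1 was also higher in Zac1 replicate 9 (3397) than in Zac1 replicate 12 (1475). The part of GC content or of Plagl1 level in the Rxra values was not tested. With a loess fit on GC content subtracted from every library, the log2 fold change of Rxra was 0.78 (limma adjusted p = 0.391). That of Pparg, whose transcripts had a GC content of 45.3%, was 1.30 (adjusted p = 0.0997).

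Rxrb encodes the retinoid X receptor beta. It had a normalised count of 229 in CAT replicate 9, 334 in CAT replicate 12, 320 in Zac1 replicate 9 and 303 in Zac1 replicate 12. Both Zac1 values fell between the CAT values. The log2 fold change of Rxrb was 0.17 ± 0.25 (SE; 95% interval -0.36 to 0.70; limma adjusted p = 0.983), so a rise of up to 1.62-fold lay within the interval. It was -0.10 without CAT replicate 9 and 0.44 without CAT replicate 12, and 0.03 after the GC correction. The difference between Rxra and Rxrb in response was not tested.

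Adcyap1r1 showed no difference beyond the replicate spread. Its normalised count was 1542 in CAT replicate 9, 2325 in CAT replicate 12, 2088 in Zac1 replicate 9 and 1812 in Zac1 replicate 12. The Zac1 values again lay between the CAT values, and the CAT libraries differed by more than the groups did. The means were 1934 ± 554 and 1950 ± 195 (SD, n = 2), with a log2 fold change of 0.04 ± 0.23 (SE; limma adjusted p = 0.991). The 95% interval of -0.45 to 0.53 held changes from 0.73-fold to 1.45-fold. Leaving out CAT replicate 9 turned the value to -0.26 and leaving out CAT replicate 12 gave 0.34. Omitting Zac1 replicate 9 gave -0.06, and omitting replicate 12 of that group gave 0.14.

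Tcf4, an E-protein that pairs with other helix-loop-helix factors, was at 2403 in CAT replicate 9, 2614 in CAT replicate 12, 2317 in Zac1 replicate 9 and 2214 in Zac1 replicate 12. Both Zac1 values were below both CAT values, and the group means differed by little more than the CAT libraries did from each other. The log2 fold change was -0.15 ± 0.20 (SE; 95% interval -0.58 to 0.29; limma adjusted p = 0.983) and stayed between -0.21 and -0.09 when 1 library was left out.

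Apaf1, the scaffold of the apoptosome, had the lowest log2 fold change of the members. Its normalised count was 97.5 in CAT replicate 9, 79.7 in CAT replicate 12, 48.5 in Zac1 replicate 9 and 68.2 in Zac1 replicate 12. Both Zac1 libraries were below the CAT libraries. The means were 88.6 ± 12.6 and 58.4 ± 13.9 (SD, n = 2), and the log2 fold change of -0.61 ± 0.33 (SE; 95% interval -1.30 to 0.09) did not pass (limma, unadjusted p = 0.0836, adjusted p = 0.923). Leaving out Zac1 replicate 9 gave -0.36, and leaving out replicate 12 of that group gave -0.85.

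Slc2a4 was close to the limit of detection. It had 7 recovered tags in CAT replicate 9, 4 in CAT replicate 12, 13 in Zac1 replicate 9 and 1 in Zac1 replicate 12. The groups overlapped, with the highest and the lowest value both in the Zac1 group. Scaled to library size, the Zac1 to CAT ratio was 1.23 (exact 95% interval 0.517 to 2.99, counting error only), 0.177 without Zac1 replicate 9 and 2.26 with Zac1 replicate 12 left out. The spread between libraries of 1 group exceeded the difference between groups.

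**Figure D2:**
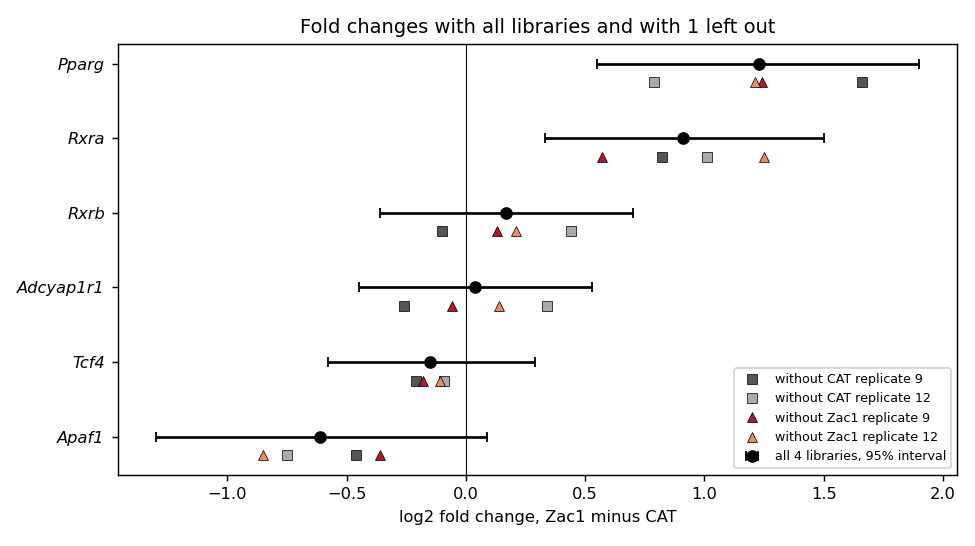
Log2 fold changes (horizontal axis, Zac1 minus CAT) of the 6 members tested, with the 95% interval of the limma fit (bars) and the value with 1 library left out (squares and triangles). Pparg and Rxra lie to the right of 0 in every fit shown, Tcf4 and Apaf1 to the left, and Adcyap1r1 and Rxrb change sign.

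The genes whose profile over the 4 libraries was most like that of Pparg were Fam101b, Pim3 and C430049B03Rik. Likeness was the Euclidean distance between log2 profiles centred on each gene's mean, and was 0.103 for Fam101b, 0.148 for Pim3 and 0.150 for C430049B03Rik. Pim3, a serine/threonine kinase gene, was at 569 in CAT replicate 9, 295 in CAT replicate 12, 911 in Zac1 replicate 9 and 862 in Zac1 replicate 12 (log2 fold change 1.11, limma adjusted p = 0.0739). Like Pparg, it was lowest in CAT replicate 12, which follows from its choice by likeness. The genes nearest to Adcyap1r1 were Psph (distance 0.036), which encodes phosphoserine phosphatase, Hbp1 (0.044) and 8430429K09Rik (0.050). Psph was at 1911 in CAT replicate 9, 2823 in CAT replicate 12, 2626 in Zac1 replicate 9 and 2248 in Zac1 replicate 12. These distances rest on 4 libraries and are descriptions.

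Each member was then set among genes of its pathway, in 8 lists. Casp9, Sos1, Sos2, Tcf3, Tcf12, Krt8, Slc2a1, Slc2a3, Ep300, Ncor1, Med1, Prkaca and Prkacb are described for their roles and were named after their values were seen. None of the 8 lists held a gene that passed the test. The nuclear receptor list held the PPAR, RXR, retinoic acid, LXR, vitamin D and thyroid hormone receptors, their coregulators and the C/EBP factors. Of 31 genes 23 were tested, of which 0 passed, and 18 had positive and 5 negative values. Over all genes, 5529 of the 11433 tested had positive values. The median log2 fold change of the list was 0.15, or 0.03 without Zac1 replicate 9 and 0.08 after the GC correction. Both Zac1 libraries were above the CAT libraries in 5 of 23 (21.7%, against 17.2% of all genes) and below in 2 (8.7%, against 16.7%).

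Rarg, the retinoic acid receptor gamma gene, was at 445 in CAT replicate 9, 421 in CAT replicate 12, 839 in Zac1 replicate 9 and 760 in Zac1 replicate 12. Its groups were well separated, and its log2 fold change of 0.88 ± 0.22 (SE) had the smallest p of the list but did not pass (limma adjusted p = 0.0778). With libraries scaled to equal totals it did, at 0.94 (limma adjusted p = 0.0448), and after the GC correction it was 0.75 (limma adjusted p = 0.184). Cebpb, a factor that precedes Pparg in fat cell differentiation, was at 1891 and 1697 in CAT replicates 9 and 12 and at 2905 and 2687 in Zac1 replicates 9 and 12. Its log2 fold change was 0.64 ± 0.21 (limma adjusted p = 0.267), and 0.35 after the GC correction.

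Of the other PPAR genes, named here for their role after their values were seen, Ppara was low, at 15.4 and 10.3 in the CAT libraries and 36.0 and 19.8 in the Zac1 libraries (log2 fold change 1.03 ± 0.55 SE, limma adjusted p = 0.921). Ppard was at 419 and 445 in the CAT libraries and 599 and 440 in the Zac1 libraries (0.25 ± 0.23, limma adjusted p = 0.983), with overlapping groups. Among coregulators, the acetyltransferase gene Ep300 was at 0.09 and the corepressor gene Ncor1 at -0.02 on the log2 scale. Med1, the Mediator subunit that contacts nuclear receptors, was at -0.23.

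**Figure D3:**
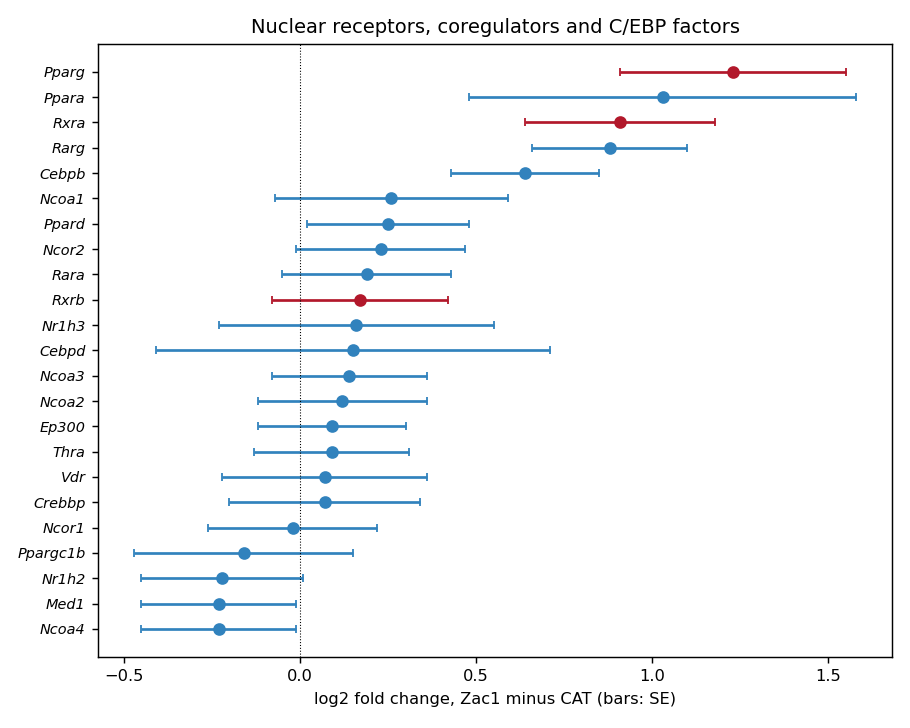
Log2 fold changes (horizontal axis, Zac1 minus CAT, bars SE) of the 23 tested genes of the nuclear receptor list, with members in red. Pparg, Ppara, Rxra, Rarg and Cebpb have the highest values, between 0.64 and 1.23, and none passed the test.

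Of 41 genes known as PPAR targets in lipid metabolism, 23 were tested, 0 passed, 9 values were positive and 14 negative, and the median log2 fold change was -0.10. Both Zac1 libraries were above the CAT libraries in 2 of 23 genes (8.7%, against 17.2% of all genes) and below in 4 (17.4%, against 16.7%). Fabp3, a fatty acid binding protein gene, was at 84.3 and 79.7 in CAT replicates 9 and 12 and at 172 and 115 in Zac1 replicates 9 and 12. The difference on the log2 scale was 0.77 ± 0.30 (SE; limma adjusted p = 0.504), and 0.48 without Zac1 replicate 9. Cpt1a, which encodes the carnitine palmitoyltransferase of mitochondrial fatty acid uptake, was at 353 and 470 in the CAT libraries and 308 and 289 in the Zac1 libraries. This gave a difference of -0.45 ± 0.24 on the log2 scale (limma adjusted p = 0.905). Dbi, the acyl-CoA binding protein gene with the highest mean of this list, was at 0.08 on the log2 scale. The fat cell genes Fabp4, Cd36, Lpl and Plin1 were not analysed here.

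In the list on PACAP receptor and cyclic AMP signalling, 26 of 35 genes were tested and 0 passed. Values were positive in 20 and negative in 6 (5529 of 11433 were positive over all genes). The median log2 fold change was 0.08, or 0.11 after the GC correction. Both Zac1 libraries were above the CAT libraries in 9 of 26 genes (34.6%, against 17.2% of all genes) and below in 2 (7.69%, against 16.7%). The genes above included Adcy7 and Pde4c, which reached the minimum mean through their Zac1 values alone and were named after their values were seen. Adcy7, an adenylyl cyclase gene, was at 8.86 and 7.49 in the CAT libraries and 27.2 and 15.8 in the Zac1 libraries. How far the minimum raised the share above, in this list or over all genes, was not tested. Pde4a, a cyclic AMP phosphodiesterase gene, was at 107 and 105 in CAT replicates 9 and 12 and at 217 and 156 in Zac1 replicates 9 and 12. For Pde4a the log2 fold change was 0.79 ± 0.27 (SE; limma adjusted p = 0.359). Rapgef3, which encodes the cyclic AMP-activated exchange factor EPAC1, was at 45.4 and 38.4 in the CAT libraries and 87.4 and 72.2 in the Zac1 libraries (0.91 ± 0.34, limma adjusted p = 0.462). Gnas, the imprinted gene of the stimulatory G protein alpha subunit, had the highest mean of the list and a log2 fold change of 0.18.

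The other phosphodiesterase 4 genes were named after their values were seen. Pde4c was low, at 7.77 and 7.5 in the CAT libraries and 34.1 and 12.8 in the Zac1 libraries. The log2 fold change of Pde4c was 1.35 ± 0.66 (SE; limma adjusted p = 0.847). Pde4c reached the minimum mean through its Zac1 values alone. Pde4d was at 328 and 427 in the CAT libraries and 482 and 587 in the Zac1 libraries, with a log2 fold change of 0.51 ± 0.24 (SE; limma adjusted p = 0.792). Pde4b was at 174 and 181 in the CAT libraries and 96.1 and 141 in the Zac1 libraries, a difference of -0.60 ± 0.28 on the log2 scale (limma adjusted p = 0.769). The catalytic subunit genes of the cyclic AMP-dependent kinase, Prkaca and Prkacb, were at 0.30 and -0.27 on the log2 scale and did not pass.

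Another receptor gene of this family, Vipr2, and the adenylyl cyclase gene Adcy5 were under the minimum mean and were named after their values were seen. Vipr2, a receptor for VIP and PACAP, had 0 recovered tags in CAT replicate 9, 1 in CAT replicate 12, 10 in Zac1 replicate 9 and 7 in Zac1 replicate 12. Both Zac1 libraries held more tags than either CAT library, a ratio scaled to library size of 16.4 (exact 95% interval 2.57 to 685, counting error only), and 8.88 without CAT replicate 9. Without CAT replicate 12 the control count was 0, and with the remaining CAT library set to a floor of 3 counts Vipr2 was at least 2.5-fold higher. The ratio of 16.4 therefore rests on 1 control tag. Adcy5 had 0 tags in both CAT libraries, 24 in Zac1 replicate 9 and 4 in Zac1 replicate 12. With each CAT library set to a floor of 3 counts, Adcy5 was at least 4.5-fold higher in the Zac1 libraries. Leaving out Zac1 replicate 9 lowered this bound to 1.3-fold. Neither gene was tested.

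The list around Rasgrf1 covered Ras exchange factors and the MAP kinase cascade, with 30 of 36 genes tested, 0 passed and a median log2 fold change of -0.05. Both Zac1 libraries were above the CAT libraries in 6 of 30 genes (20%, against 17.2% of all genes) and below in 3 (10%, against 16.7%). Rasgrp2, a calcium-regulated exchange factor gene best known in platelets, was at 33.1 and 20.5 in CAT replicates 9 and 12 and at 92.3 and 57.3 in Zac1 replicates 9 and 12. Its log2 fold change of 1.44 ± 0.41 (SE) was the highest of the list and did not pass (limma adjusted p = 0.141). Rasa3, a Ras GTPase-activating protein gene, was at 194 and 151 in the CAT libraries and 241 and 288 in the Zac1 libraries (0.62 ± 0.25, limma adjusted p = 0.611). The exchange factor genes Sos1 and Sos2 were at 0.08 and -0.09, and Mapk3, with the highest mean of the list, was at 0.10.

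Among E proteins, Id factors and neural helix-loop-helix factors, 15 of 30 genes were tested and 0 passed. Values were positive in 5 and negative in 10, and the median log2 fold change was -0.11. Both Zac1 libraries were above the CAT libraries in 0 of 15 genes (against 17.2% of all genes) and below in 2 (13.3%, against 16.7%). The E-protein genes beside Tcf4 were Tcf3 at 0.03 and Tcf12 at -0.23 on the log2 scale. Id4, an inhibitor of E proteins, was at 78.7 and 69.4 in CAT replicates 9 and 12 and at 48.6 and 38.6 in Zac1 replicates 9 and 12. Both Zac1 values were below both CAT values, with a log2 fold change of -0.76 ± 0.34 (SE; limma adjusted p = 0.743). Id1 was at -0.31 ± 0.23 (limma adjusted p = 0.967), with overlapping groups, and Hand2, a noradrenergic factor gene with the highest mean of the list, at -0.24.

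In the apoptosome list, 29 of 35 genes were tested and 0 passed, with 14 positive and 15 negative values and a median log2 fold change of -0.00. Both Zac1 libraries were below the CAT libraries in 8 of 29 genes (27.6%, against 16.7% of all genes) and above in 3 (10.3%, against 17.2%). Cycs, which encodes the cytochrome c that triggers Apaf1 assembly, was at 9945 and 8996 in the CAT libraries and 6459 and 8743 in the Zac1 libraries (-0.33 ± 0.22, limma adjusted p = 0.955), and at -0.11 without Zac1 replicate 9. Casp9, the caspase that Apaf1 activates, was at -0.30 ± 0.26 (limma adjusted p = 0.983), with overlapping groups. Bbc3 and Bmf, named after their values were seen, encode BH3-only proteins that promote apoptosis. Their log2 fold changes were 0.61 ± 0.40 (SE; limma adjusted p = 0.955) and 0.49 ± 0.34 (limma adjusted p = 0.959), and neither passed. These were the highest values of the list. The other BH3-only genes tested, Bid, Bad and Bcl2l11, also named after their values were seen, were at 0.31, 0.20 and 0.20. Their groups overlapped, and Bik did not reach the minimum mean.

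Of 36 keratin and epithelial genes only 5 were tested, and 29 were not analysed here, Krt14 and its partner Krt5 among them. None of the 5 passed. Both Zac1 libraries were above the CAT libraries in 0 of them and below in 1, Krt222 (20%, against 16.7% of all genes). Krt222 was at 15.5 and 14.1 in CAT replicates 9 and 12 and at 8.78 and 1.96 in Zac1 replicates 9 and 12 (log2 fold change -1.55 ± 0.80 SE, limma adjusted p = 0.902). Leaving out Zac1 replicate 9 gave -2.41 and leaving out Zac1 replicate 12 gave -0.69, and Krt222 reached the minimum mean of 10 through its CAT values alone. Pkp2, a desmosomal plakophilin gene, was at -0.36 ± 0.27 (limma adjusted p = 0.967), and at 0.05 without Zac1 replicate 12. Krt8, a keratin of simple epithelia, was at 0.31.

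Of 35 genes of glucose transport and GLUT4 traffic, 27 were tested and 0 passed, with a median log2 fold change of -0.02. Both Zac1 libraries were below the CAT libraries in 8 of 27 genes (29.6%, against 16.7% of all genes). They were above in 5 (18.5%, against 17.2%). The share below was thus at least as high as in the apoptosome list (27.6%). The transporter genes Slc2a1 and Slc2a3, which encode GLUT1 and GLUT3, were at -0.08 and -0.01. Slc2a3 was at 1181 and 1464 in CAT replicates 9 and 12 and at 1207 and 1411 in Zac1 replicates 9 and 12. Both group ranges covered nearly the same values. Myo1c, a myosin gene of GLUT4 vesicle traffic, was at 779 and 930 in the CAT libraries and 1489 and 967 in the Zac1 libraries (0.49 ± 0.24 SE, limma adjusted p = 0.847), and at 0.18 without Zac1 replicate 9. Tbc1d4, which encodes the Rab regulator AS160, was at 0.42 ± 0.24 (limma adjusted p = 0.928), and at 0.09 without Zac1 replicate 9.

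**Figure D4:**
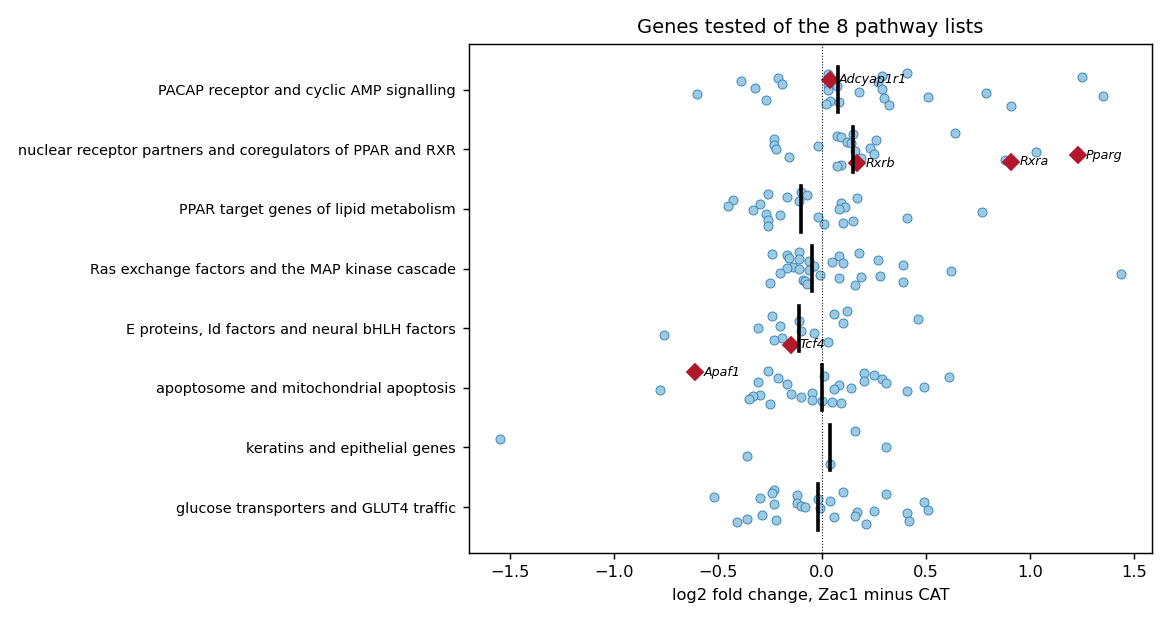
Log2 fold changes (horizontal axis, Zac1 minus CAT) of the genes tested in each of 8 pathway lists, with members as red diamonds and the list median as a black bar. The medians lie between -0.11 and 0.15, and none of the genes shown passed the test.

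Promoter windows of 250 bases before each RefSeq start (GRCm38.p6) were read for the 7 members that had an entry, which gave 11 windows. The letters GGGGCCCC, a known Zac1 binding sequence that reads the same on both strands, were in 1 of 11 windows, that of Rasgrf1, where it began 58 bases before the start, and in 0.889% of 32851 windows of all genes. The direct repeat of AGGTCA with 1 base between the copies, the element bound by PPAR and RXR together, was in 0 of 11 windows on either strand, and in 0.0335% of all. The GC box GGGCGG, searched on both strands, was in 8 of 11, and in 32.7% of all. The search for GGGGCCCC also counted occurrences that overlap a GC box. The windows of Adcyap1r1 and of the 3 starts of Pparg are shown, all on the plus strand, because Pparg had the largest difference and its single tag cannot tell the 3 starts apart, and because Adcyap1r1 is the receptor gene the PACAP list was built around. Capitals mark the GC box on either strand.
Adcyap1r1, chr6:55451728-55451977: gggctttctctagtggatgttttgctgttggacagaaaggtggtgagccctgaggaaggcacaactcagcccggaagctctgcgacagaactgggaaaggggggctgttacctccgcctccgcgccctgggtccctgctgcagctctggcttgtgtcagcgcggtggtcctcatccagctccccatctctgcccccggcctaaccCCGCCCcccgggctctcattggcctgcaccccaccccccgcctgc
Pparg start 1, chr6:115360894-115361143: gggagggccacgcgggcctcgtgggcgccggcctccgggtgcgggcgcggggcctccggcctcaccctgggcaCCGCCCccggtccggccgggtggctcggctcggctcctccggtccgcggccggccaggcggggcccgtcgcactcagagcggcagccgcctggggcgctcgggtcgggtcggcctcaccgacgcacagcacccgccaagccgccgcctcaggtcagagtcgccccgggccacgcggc
Pparg start 2, chr6:115362099-115362348: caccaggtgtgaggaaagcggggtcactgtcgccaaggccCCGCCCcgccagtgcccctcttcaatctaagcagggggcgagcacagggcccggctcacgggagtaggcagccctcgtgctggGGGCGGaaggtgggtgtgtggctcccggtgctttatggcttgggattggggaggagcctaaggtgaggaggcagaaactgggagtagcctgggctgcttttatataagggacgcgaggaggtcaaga
Pparg start 3, chr6:115421816-115422065: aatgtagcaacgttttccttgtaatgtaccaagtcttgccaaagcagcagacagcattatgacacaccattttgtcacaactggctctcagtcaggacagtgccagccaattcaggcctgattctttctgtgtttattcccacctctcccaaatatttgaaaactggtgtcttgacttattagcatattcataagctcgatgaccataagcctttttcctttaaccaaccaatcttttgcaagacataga

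The GC content was 65.6% in the Adcyap1r1 window and 82.4%, 63.6% and 40.8% in the windows of Pparg starts 1, 2 and 3. The GC box occurred 1 time in the Adcyap1r1 window, and Pparg start 3 had 0. These matches describe the letters in these windows.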

How the data were processed

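RNA of Neuro-2A cells was measured in 4 libraries, 2 transfected with Zac1 and 2 with CAT, from 2 µg of total RNA and with 15 PCR cycles per the labels' protocols. The deposited signal values were tag counts per gene after TMM normalization to a common library size, as the deposited table's name (TMM pseudocounts) gives it. Per the submitters' processing notes the authors used edgeR and build mm9. The version, mapping and tag assignment were not given in the sources used here, and values of overlapping or near-identical genes are uncertain.

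Genes with a mean of at least 10 were tested with limma 3.58.1 (R 4.3.3) on log2(value + 1) with a variance trend and no block, two-sided, with Benjamini-Hochberg adjustment over 11433 genes and a threshold of 0.05. Fold changes are on that scale and understate those of low genes. Prior degrees of freedom were 14.1. 5 lines without a gene ID were left out (0% to 0.00897% of a library's counts). Whole counts were recovered by inverting the quantile adjustment (dispersion 0.0364), which returned 100% of lines within 1e-06. They give depth, low counts and the tag counts quoted for Pparg only. A limma voom fit on them was tried after the data were seen and left out, since the deposited values are not counts. No p-value rests on a count test. The ratios, exact binomial intervals and floor bounds given for Slc2a4, Vipr2 and Adcy5 do rest on the recovered counts. The recovery and the fit were tested on simulated data. PCR copies are not independent molecules, so intervals on counts cover counting error only.

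Alternatives were other pseudocounts, no minimum, equal library totals, no variance trend, a loess correction for transcript GC content, the replicate number as a block with and without that correction, and leaving out each library.

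Named were all members and, per pathway list, passing genes, the 2 other genes of smallest p and the gene of highest mean. Other list genes were named after their values were seen, as the text says. 1 gene that this rule names is not reported here. Members and lists were chosen with earlier results of these data known. Libraries were grouped by their titles.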

Additional observations from a re-analysis of the deposited data

Results flagged for a closer look

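The 5 lines without a gene ID, which entered no comparison, held signal in the Zac1 libraries and none in the control libraries. Their summed normalised count was 0 in both CAT libraries, 1084 in Zac1 replicate 9 and 555 in Zac1 replicate 12.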

How the results depend on the processing

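Over 12 alternatives the direction of Pparg, Rxra, Tcf4 and Apaf1 was the same. Adcyap1r1 turned to -0.26 without CAT replicate 9 and -0.06 without Zac1 replicate 9, and Rxrb to -0.10 without CAT replicate 9 (leaving out 1 library gave -0.26 to 0.34 and -0.10 to 0.44). The adjusted p ranged from 6.42e-04 to 1 for Pparg, passing in 3 alternatives, and from 0.0225 to 1 for Rxra, passing in 1. No alternative gave a call for the other 4. With libraries scaled to equal totals 1 gene of the nuclear receptor list, Rarg, was called, and the median of all genes moved from -0.01 to 0.05. Without CAT replicate 9 the call in that list was Pparg. Leaving out 1 library gave 1 to 154 genes called higher over all genes and 0 to 5 called lower, and 0 to 1 in the nuclear receptor list. Without Zac1 replicate 9, or without Zac1 replicate 12, 1 gene was called.

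The replicate number as a block gave 279 higher genes, among them Pparg (adjusted p = 0.00243), Rxra (0.0225) and Rarg (0.0148), 3 calls in the nuclear receptor list, and Rasgrp2, 1 call in the Ras list. With the block and the GC correction there were 230 higher and 2 lower genes, with Pparg (6.42e-04) and Rasgrp2 as the 1 call in each list. Same-numbered libraries deviated together with a correlation of 0.20 across genes, but 2 pairs do not show that the numbers pair the samples. The planned edgeR and DESeq2 tests were not run, because the deposited values are not whole counts or whole multiples of a step. They were not run on the recovered counts either. Slc2a4 had 1 to 13 tags per library.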
